A study of Mus musculus with 2 samples.

Results

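The genes that build and load major histocompatibility complex (MHC) class I molecules were followed in B16 cells, a mouse melanoma line of C57BL/6 origin. The set holds 10 genes, H2-K1, H2-D1, H2-Q4, H2-T23, B2m, Tap1, Tap2, Tapbp, Erap1 and Nlrc5, chosen by their symbols. All 10 were found among the 18220 genes of the deposited table. RNA came from 1 library of B16 cells treated with LY500307 and from 1 library of control-treated B16 cells. LY500307 (erteberel) is a drug that activates estrogen receptor beta in preference to the alpha receptor. The labels state neither dose nor duration, nor what the control cells received, nor how many cultures went into a library.

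Class I molecules show short peptides from inside the cell to cytotoxic T cells and natural killer cells. A polymorphic heavy chain pairs with the light chain beta-2 microglobulin in the endoplasmic reticulum, where peptides arrive from the cytosol through the TAP transporter. Tapasin bridges the empty molecule to TAP, and the peptidase ERAP1 trims peptides to length. NLRC5 is a transactivator of class I genes that acts through the SXY module of their promoters, and interferon gamma is the textbook inducer of the whole set. B16 is known as a line with little class I on its surface that can be raised by interferon gamma.

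The LY500307 library held 14698853 reads and the control library 16704950 reads, recovered from the deposited scaled values. Levels are given as CPM, reads scaled to a common library size, and a single read was worth 0.0676 CPM in the LY500307 library and 0.0603 CPM in the control library. Each group is 1 library, so the treatments cannot be tested against each other and every difference describes these 2 libraries. Ratios below are of reads on the deposited scale, LY500307 over control, with an exact 95% interval that covers counting error only. All 7 melanocyte markers, among them Tyr, Dct and Mlana, were abundant, with a summed level of 25082 CPM in the LY500307 library and 26245 CPM in the control library. Of 16 leukocyte markers 4 were listed (Cd4, Cd68, Cd79a and Lyz2), none of them at 0, and their summed level was 2.10 CPM in the LY500307 library and 2.17 CPM in the control library. Fibroblast markers, 4 of 5 listed and none at 0, summed to 6.96 CPM in the LY500307 library and 7.53 CPM in the control library. The endothelial and keratinocyte markers were not analysed here.

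The promoters are shown because several of them carry elements through which class I genes are known to be switched on together. Whether these elements relate to the values below was not tested. RefSeq windows (build GRCm38.p6) of the 250 bases before the annotated start were matched by symbol for 8 of the 10 genes, without Tap2 and Nlrc5. Where a gene had several starts, the one farthest downstream was taken. The window of H2-K1 is chr17:34000334-34000583 on the minus strand. The others lie on the plus strand, H2-D1 at chr17:35262844-35263093, H2-Q4 at chr17:35379367-35379616, B2m at chr2:122147437-122147686 and Tap1 at chr17:34187306-34187555. Each is written along its gene's strand, and capitals mark matches to any of the motifs described after the sequences.
H2-K1: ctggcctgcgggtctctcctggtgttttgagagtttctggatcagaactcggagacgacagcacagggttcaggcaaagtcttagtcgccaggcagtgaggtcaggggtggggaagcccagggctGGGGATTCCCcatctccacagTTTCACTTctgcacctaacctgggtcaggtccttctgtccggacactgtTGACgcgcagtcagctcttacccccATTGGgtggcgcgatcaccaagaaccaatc
H2-D1: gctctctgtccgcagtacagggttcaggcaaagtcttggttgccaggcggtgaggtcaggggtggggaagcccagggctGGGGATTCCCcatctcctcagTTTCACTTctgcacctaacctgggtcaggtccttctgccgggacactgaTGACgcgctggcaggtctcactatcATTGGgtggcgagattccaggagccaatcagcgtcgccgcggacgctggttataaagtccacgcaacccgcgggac
H2-Q4: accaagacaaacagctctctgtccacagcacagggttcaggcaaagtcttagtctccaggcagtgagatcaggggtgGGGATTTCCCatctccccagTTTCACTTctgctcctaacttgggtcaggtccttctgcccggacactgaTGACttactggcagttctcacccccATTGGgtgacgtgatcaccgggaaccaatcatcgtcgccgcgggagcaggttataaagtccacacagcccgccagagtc
B2m: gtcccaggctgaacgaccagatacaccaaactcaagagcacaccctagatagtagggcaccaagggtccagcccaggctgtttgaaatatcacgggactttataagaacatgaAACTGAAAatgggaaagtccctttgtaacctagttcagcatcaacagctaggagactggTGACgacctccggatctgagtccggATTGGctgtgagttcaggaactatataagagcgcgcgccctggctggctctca
Tap1: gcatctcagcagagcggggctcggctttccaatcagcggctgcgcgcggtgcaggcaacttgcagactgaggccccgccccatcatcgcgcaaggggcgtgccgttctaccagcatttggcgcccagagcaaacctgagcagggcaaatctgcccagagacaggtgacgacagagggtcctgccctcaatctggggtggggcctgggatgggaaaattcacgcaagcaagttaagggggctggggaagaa

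The motifs were searched on both strands. The kappaB site of class I promoters, bound by NF-kappaB, was written as GGG and TTCCC with any 2 bases between them. It was present in H2-K1, H2-D1 and H2-Q4, 3 of the 8 windows, and in 1.51% of 27025 windows of all genes. The interferon-stimulated response element was written as the loose pattern TTTC and TT with any 2 bases between them, which 5 of the 8 windows and 21.7% of all windows held. These 5 were H2-K1, H2-D1, H2-Q4, B2m and H2-T23, and in B2m the match ran on the other strand. The X2 and Y parts of the SXY module were written TGAC and ATTGG with 21 bases between them. That spacing was spelled from the class I promoters themselves, so its matches there are a description. It was found in H2-K1, H2-D1, H2-Q4 and B2m, 4 of the 8 windows, and in 0.215% of all windows. The matches of the 3 patterns did not overlap in the windows shown. The windows of Tap1, Tapbp and Erap1 held none of these letters, which says nothing about the factors that act there.

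The base level in the control library spanned several orders of magnitude once divided by the length of the longest annotated transcript. B2m, the shared light chain, stood at 111.1 CPM per kilobase, and H2-D1, which encodes the classical heavy chain of the D locus, at 28.5. Tapbp, which encodes tapasin, was at 6.53 and H2-K1, the classical heavy chain of the K locus, at 6.40. H2-Q4, a nonclassical heavy chain of the Q region, was at 1.95 and Erap1 at 1.51 CPM per kilobase. Tap1 followed at 0.200, Nlrc5 at 0.0477, Tap2 at 0.0349 and H2-T23, which encodes the nonclassical molecule Qa-1, at 0.0227 CPM per kilobase. Counting intervals of neighbours in this order overlapped between Tapbp and H2-K1, between H2-Q4 and Erap1, and among Nlrc5, Tap2 and H2-T23. In the LY500307 library the order was the same except for H2-T23, at 0.102 CPM per kilobase, and Tap2, at 0.0590, which changed places with overlapping intervals. The TAP transporter needs both of its subunits, and the transcripts of both were scarce: Tap2 rested on 3 reads in the LY500307 library and 2 in the control library.

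**Figure D1:**
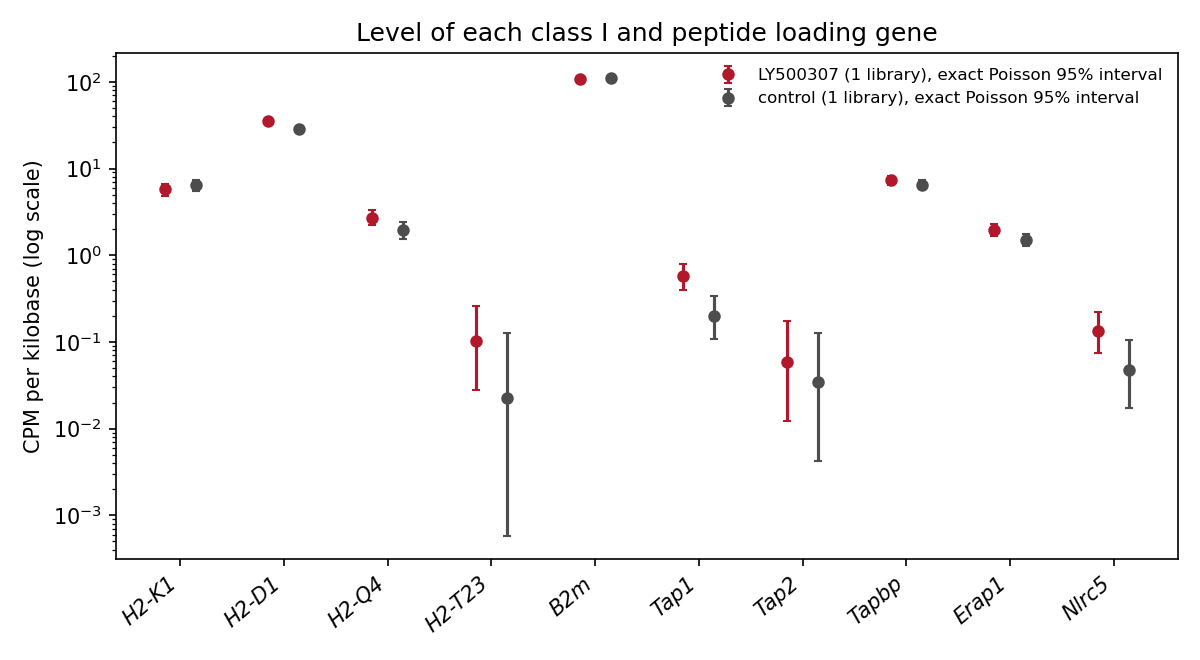
Level of each gene in CPM per kilobase of its longest transcript (log axis), LY500307 library left of the control library, with exact Poisson 95% intervals of the reads. B2m and H2-D1 stand far above the others, and H2-T23 and Tap2 lie at a few reads in both libraries.

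Of the 10 genes, 7 reached a mean of 1 CPM, the minimum for the comparison across genes. Tap1 passed through its LY500307 value alone, since its control value lies under 1 CPM. Fold changes across genes were taken as log2((LY500307 + 1)/(control + 1)) in CPM, and the added 1 shrinks the fold of scarce transcripts. In these bulk libraries more cells with a transcript and more of it per cell cannot be told apart. None of the 7 was at least 2-fold higher or lower by this measure, where 0.376% of the 12243 genes measured were, 0.253% higher and 0.123% lower. At 1.5-fold, Tap1 was higher and none lower, with 2.25% of all genes higher and 1.39% lower. Intervals of the ratio lay wholly above 1 for 4 of the 7 (H2-D1, H2-Q4, Tap1 and Erap1) and wholly below 1 for none. Over all genes measured, 17.2% had intervals above 1 and 19.2% below. The share above depended on level, from 8.15% of genes between 1 and 2 CPM to 21.6% at 100 CPM and above. An exact binomial test of the reads with Benjamini-Hochberg adjustment over all genes measured, a comparison of libraries rather than treatments, called H2-D1 and Tap1 higher and none of the 7 lower. It called 12.0% of all genes higher and 14.0% lower. The median log2 fold of the 7 was 0.30, beside -0.01 for all genes measured. Without Tap1, which had to be high in the LY500307 library to be counted, 3 of 6 had intervals above 1 and the median was 0.22. Among these 6 the binomial test called only H2-D1 higher, beside 12.0% of all genes.

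Among the heavy chains, the major transcript was modestly higher in the LY500307 library and the other classical one was not. H2-D1 had 1091 reads, or 73.7 CPM, in the LY500307 library and 993 reads, or 59.8 CPM, in the control library. The ratio was 1.23 (1.13 to 1.34), which is a log2 fold of 0.30. H2-K1 had 159 reads, or 10.7 CPM, in the LY500307 library and 199 reads, or 12.0 CPM, in the control library. Its ratio of 0.896 (0.723 to 1.11) has an interval on both sides of 1, so no difference was detectable at this depth.

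Within each library the reads of the classical heavy chains H2-D1 and H2-K1 can be compared without any scaling. H2-D1 had 6.86 reads for each H2-K1 read in the LY500307 library and 4.99 in the control library. The change in that ratio, a comparison chosen after the values were seen, was 1.37-fold (1.09 to 1.74, exact conditional interval). It restates the reads given above and is not separate evidence. H2-K1 made up 11.7% of the reads of the 4 heavy chains in the LY500307 library (Clopper-Pearson 95% interval 10.05% to 13.5%) and 15.6% in the control library (13.6% to 17.7%). H2-D1 made up 80.3% (78.1% to 82.4%) in the LY500307 library and 77.8% (75.4% to 80.0%) in the control library.

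The nonclassical heavy chains had fewer reads. H2-Q4 had 104 reads, or 7.03 CPM, in the LY500307 library and 84 reads, or 5.06 CPM, in the control library, a ratio of 1.39 (1.03 to 1.87). H2-T23, whose product Qa-1 is the ligand of the NKG2A receptor on natural killer cells, had 4 reads in the LY500307 library and 1 in the control library. Its interval, 0.444 to 221, sets no direction. Summed over the 4 heavy chains, the level was 91.8 CPM in the LY500307 library and 77.0 CPM in the control library, a ratio of 1.19 (1.10 to 1.29). Heavy chain transcripts resemble each other: the longest transcript of H2-K1 aligned to H2-D1 at 91.3% identity over 1050 bases and to H2-Q4 at 91.4% over 945 bases. The labels do not say how reads that fit several genes were counted, so the division among heavy chains is uncertain while their sum is less so. With every listed class I heavy chain gene added, 10 in all, the sum was 116.3 CPM in the LY500307 library and 99.4 CPM in the control library, a ratio of 1.17 (1.09 to 1.25). The genes added were H2-K2, H2-M3, H2-M5, H2-T10, H2-T22 and H2-T24. H2-K2, with 24 reads in each library, is not part of the gene lists below. H2-T23 was the single member with near-identical copies in the annotation (at least 95% identity), Gm47551 and Gm48789, neither analysed here.

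B2m, the light chain that every class I molecule needs, was level. It had 1388 reads, or 93.8 CPM, in the LY500307 library and 1585 reads, or 95.5 CPM, in the control library. The ratio was 0.982, and its interval of 0.913 to 1.06 bounds any difference in counting terms. Heavy chain reads per B2m read, a ratio that was not planned, were 0.978 in the LY500307 library and 0.806 in the control library. This 1.21-fold change (1.09 to 1.35) does not depend on scaling, but it restates reads given above and is not separate evidence. The change per B2m read was 1.255-fold (1.12 to 1.41) for H2-D1 alone and 0.912-fold (0.727 to 1.14) for H2-K1 alone.

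**Figure D2:**
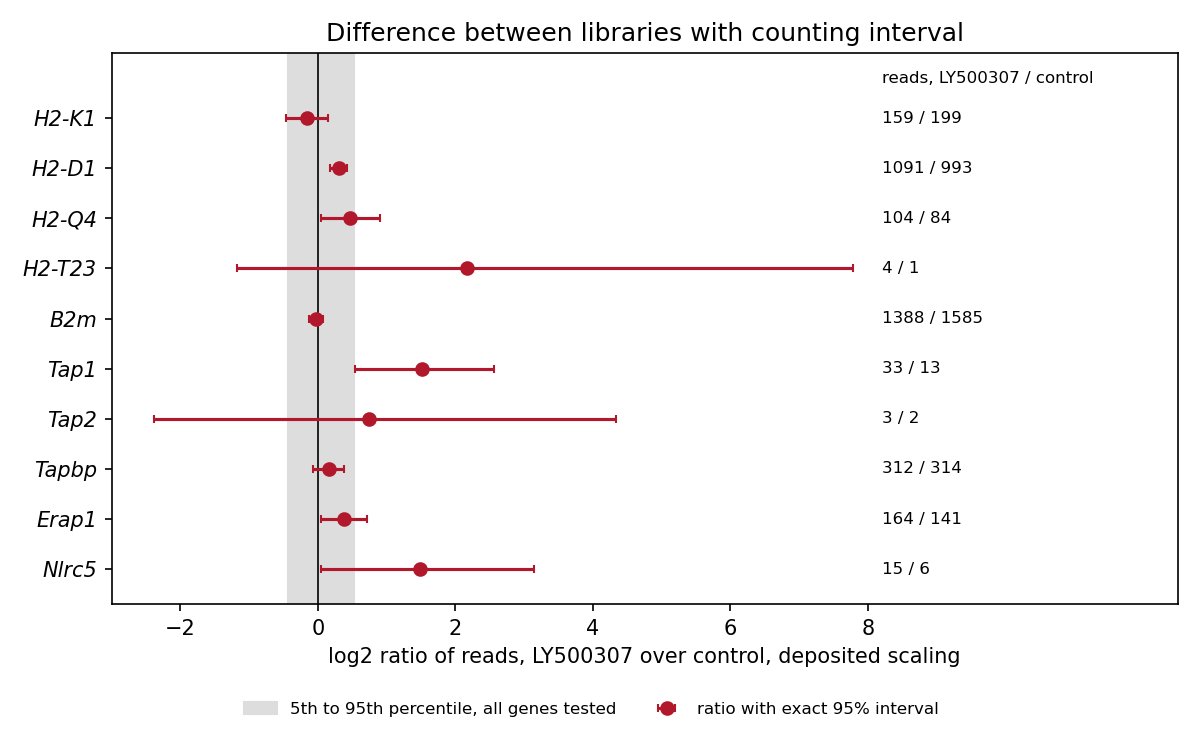
Log2 ratio of reads, LY500307 over control, for each of the 10 genes with its exact 95% counting interval; the reads of each library stand at the right, and the grey band runs from the 5th to the 95th percentile of all genes measured (-0.44 to 0.52). Tap1 is the one gene whose whole interval lies above the band; H2-K1 and B2m centre just below 0.

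Genes of peptide transport and loading ranged from level to clearly higher in reads. Tap1, which encodes one of the transporter subunits, had 33 reads, or 2.23 CPM, in the LY500307 library and 13 reads, or 0.783 CPM, in the control library. Its ratio was 2.85 (1.46 to 5.89), while its log2 fold with the added 1 CPM was 0.86. Tap2, the other subunit, had 3 reads in the LY500307 library and 2 in the control library, with an interval of 0.193 to 20.1 that sets no direction.

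Tapbp, the tapasin gene, had 312 reads, or 21.1 CPM, in the LY500307 library and 314 reads, or 18.9 CPM, in the control library, a ratio of 1.11 (0.949 to 1.31). Tap1 reads per Tapbp read, a ratio that was not planned, were 0.106 in the LY500307 library and 0.0414 in the control library. This 2.55-fold change (1.28 to 5.39) restates the Tap1 reads given above and is not separate evidence. Erap1, the trimming peptidase of the endoplasmic reticulum, had 164 reads, or 11.1 CPM, in the LY500307 library and 141 reads, or 8.50 CPM, in the control library, a ratio of 1.30 (1.03 to 1.64).

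Some of these genes share exon positions with others in the annotation (GENCODE M21). Tap1 overlaps Psmb9 on the opposite strand, and Psmb9 was not analysed here. Erap1 overlaps Cast on the opposite strand, which had 514 reads in the LY500307 library and 399 in the control library. Tapbp overlaps Zbtb22 on the same strand, which had 456 reads in the LY500307 library and 551 in the control library. The libraries were stranded per the labels' protocols, but whether the counting used strand is not stated, and the part of these overlaps in the values was not tested.

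Nlrc5, the transactivator, lay near the detection limit. It had 15 reads, or 1.01 CPM, in the LY500307 library and 6 reads, or 0.361 CPM, in the control library, a ratio of 2.80 (1.03 to 8.82). Its mean was under 1 CPM, so it was not among the 7 genes measured, and the lower bound of its interval lay close to 1. Tap2 and H2-T23 were likewise under the minimum.

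**Figure D3:**
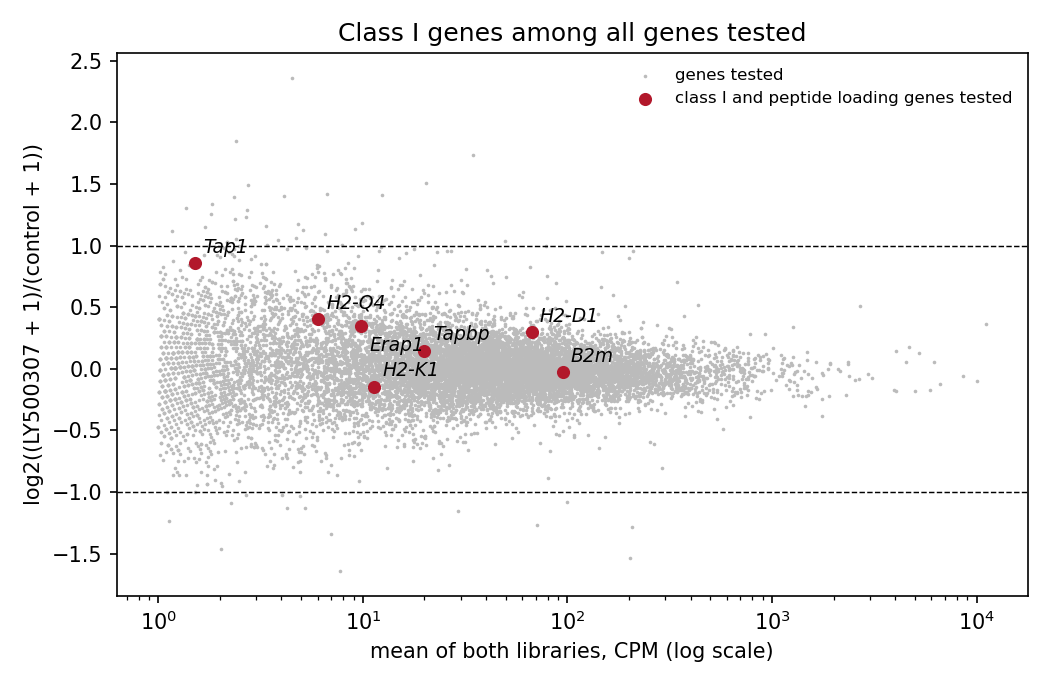
Log2((LY500307 + 1)/(control + 1)) against the mean of both libraries in CPM (log axis) for the 12243 genes measured, with the 7 measured class I and peptide loading genes in red and dashed lines at 2-fold. All 7 lie inside the dashed lines, Tap1 at 0.86 among genes of few reads.

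The wider class I pathway was read through gene lists, none of which held a gene past 2-fold on the log2(CPM + 1) scale. The counts of intervals in each list are to be read against the shares over all genes measured, 17.2% above 1 and 19.2% below 1. At 100 CPM and above these shares were 21.6% and 36.6%. Of 28 other class I and class I-like heavy chain genes, 11 were listed and 7 measured, with a median log2 fold of 0.11 and intervals above 1 for 2 (against 17.2% of all genes) and below 1 for none. Mr1, which presents microbial metabolites to MAIT cells, was at 24.4 CPM in the LY500307 library and 15.5 CPM in the control library, a ratio of 1.57 (1.33 to 1.85). Fcgrt, the neonatal Fc receptor heavy chain, was at 19.4 CPM in the LY500307 library and 12.6 CPM in the control library, a ratio of 1.54 (1.28 to 1.85). The log2 folds of the others were 0.19 for Hfe, which regulates iron uptake, 0.11 for H2-T22, 0.08 for H2-T24, -0.03 for Procr, the endothelial protein C receptor, and -0.24 for Azgp1, all with intervals that include 1. Mr1, Fcgrt and Hfe are class I-like chains that pair with B2m.

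Proteasome genes that feed the pathway had small log2 folds of both signs, and none had an interval wholly below 1. The immunoproteasome subunits Psmb8 and Psmb9 were not analysed here. Of 6 measured genes, namely Psmb10, genes of proteasome activators and Pomp, 2 had intervals above 1 (against 17.2% of all genes) and none below. Their median log2 fold was 0.12. Psme1, a subunit of the PA28 activator, was at 37.0 CPM in the LY500307 library and 30.0 CPM in the control library. Its log2 fold was 0.29 with an interval above 1. Its partner Psme2 was at 0.21 and the inducible catalytic subunit gene Psmb10 at 0.14, both with intervals that include 1. Pomp, the assembly factor, was at 0.11 with an interval above 1, and Psme4 at -0.05 and Psme2b at -0.34 had intervals that include 1. The constitutive catalytic subunits Psmb5, Psmb6 and Psmb7, which the inducible ones replace, had log2 folds of 0.23, 0.23 and 0.11, all 3 with intervals above 1, as had 21.6% of all genes at 100 CPM and above.

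Chaperones of loading and of glycoprotein folding were abundant and moved little. Of 10 genes, 4 had intervals above 1 and 5 below, with a median log2 fold of -0.07. Most of the 10 lay at 100 CPM and above, where 21.6% of all genes had intervals above 1 and 36.6% below. Tapbpl, which encodes the tapasin-related editor TAPBPR, was at 5.47 CPM in the LY500307 library and 3.80 CPM in the control library, a ratio of 1.44 (1.02 to 2.04). Prkcsh, a glucosidase subunit, was at 0.21 with an interval above 1. The glucosidase Mogs at -0.20 and the folding sensor Uggt1 at -0.19 had intervals below 1. Calr, calreticulin, which holds the empty heavy chain, was at 0.04 and Hspa5, the general chaperone BiP, at 0.06, both with intervals above 1. Canx and Pdia3, named after their values were seen because they serve class I folding, were at -0.06 and -0.09, both with intervals below 1. Cytosolic and other trimming enzymes had a median of -0.04 over 8 genes and intervals above 1 for 1 and below 1 for 1, with Lnpep, which trims peptides in endosomes, at 0.20 (interval above 1) and Blmh at -0.14 (interval below 1). The others, Ide, Nrd1, Tpp2, Lap3, Thop1 and Npepps, lay between -0.06 and 0.05 with intervals that include 1.

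Most regulators of class I transcription differed little between the libraries, and more of them had intervals below 1 than above. Of 20 measured genes 1 had an interval above 1 and 6 below, where 17.2% and 19.2% of all genes did, and the median log2 fold was -0.08. These values pool the Polycomb genes with the other factors and give no direction for class I transcription. Rfx5, a subunit of the RFX complex that binds the X box of the SXY module, was at 11.8 CPM in the LY500307 library and 8.74 CPM in the control library, a ratio of 1.35 (1.07 to 1.69). Nfyb, a subunit of the factor that binds the Y box, was at -0.27, Stat2, a transducer of type I interferon signals, at -0.50, and the Polycomb genes Eed and Ezh2 at -0.25 and -0.18, all with intervals below 1. Suz12 was at -0.07 with an interval that includes 1. Irf1, a transcription factor induced by interferon gamma and named after its value was seen, was at 0.17 with an interval that includes 1. Interferon receptors, their kinases and inhibitors had a median of 0.11 over 10 genes, with intervals above 1 for 2, close to the 17.2% of all genes, and below 1 for none. Among them Jak2, a kinase of the interferon gamma receptor, was at 0.29 and Jak1 at 0.11, both with intervals above 1. Socs1 at 0.20, Ptpn2 at 0.15, Ifngr1 at 0.13 and Ifnar1 at -0.08 had intervals that include 1.

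Genes of export to and turnover at the cell surface had a median of -0.01 over 7 genes, with intervals above 1 for 1 and below 1 for 2, close to the 17.2% and 19.2% of all genes. Bcap31, a receptor for export from the endoplasmic reticulum, was at 0.18 with an interval above 1, while Surf4 at -0.15 and Sec24c at -0.08 had intervals below 1. Bcap29, Sec24d, Rab11a and March9 lay between -0.12 and 0.07 with intervals that include 1. Class II genes, which mark professional antigen-presenting cells, had few reads. Of 9, 5 were listed and 1 was measured, H2-DMb1, with 46 reads in the LY500307 library and 23 in the control library, a ratio of 2.24 (1.33 to 3.88). H2-DMa had 10 reads in the LY500307 library and 5 in the control library, and the invariant chain gene Cd74 had 7 reads in the LY500307 library and 2 in the control library. The class II transactivator gene Ciita had 3 reads in the LY500307 library and 2 in the control library. H2-Eb1 had no read in the LY500307 library, where 3 reads are the limit that a count of 0 allows, and 2 in the control library.

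**Figure D4:**
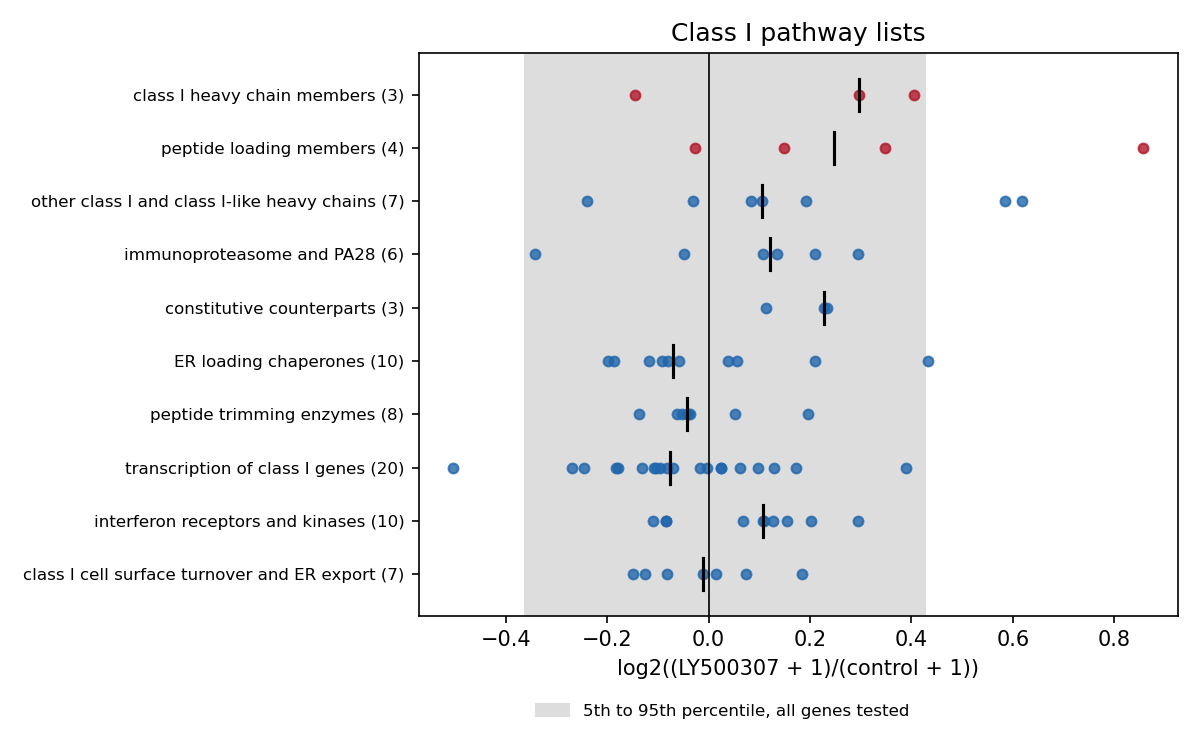
Log2((LY500307 + 1)/(control + 1)) of each measured gene in the class I set (red) and in the lists of its pathway (blue, class II genes not drawn), with the number measured in brackets, the median as a black bar and the 5th to 95th percentile of all genes in grey (-0.36 to 0.43). Most of the genes drawn lie inside the grey band, with Tap1, Mr1, Fcgrt and Tapbpl above it and Stat2 below it.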

How the data were processed

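Stranded libraries were made from total RNA without its ribosomal RNA, per the labels' protocols. The submitters' processing notes name CASAVA 1.8, Bowtie2 and mouse build mm9. The counter, annotation release, filters and scaling were not given in these sources. The authors deposited a signal per gene, and its constant steps show read counts times 1 factor per library. After division by that step, 99.9% of values above 0 in each library lay within 1% of a whole read. CPM are deposited values over the mean deposited total. Design choices had left the unit open, and rules were applied to these CPM.

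Symbols were found for 18177 of 18224 identifiers, and entries sharing a symbol were summed. The measure was log2((LY500307 + 1)/(control + 1)) over genes whose mean reached 1 CPM. Intervals are exact Clopper-Pearson intervals of the ratio of reads. Without molecular identifiers, PCR reads are not independent molecules, so intervals cover counting error only. GENCODE M21 (another build) gave transcript lengths, overlaps and copies, with blastn 2.17.0 (at least 95% identity over 100 bases and 50% of the shorter transcript). Promoters came from RefSeq.

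The genes, lists and rules were chosen with earlier results of these data known. All 10 genes are named; of each list all measured genes are named where there were at most 8, otherwise the 4 with the largest absolute log2 fold and the 2 with the highest mean. Alternatives were other pseudocounts, minimums, thresholds, intervals and scalings (TMM from edgeR 4.0.16). The binomial test, the plain ratio, exon lengths and the counts without Tap1 or copied genes were added after seeing the data. Ratios and shares of reads within a library were not among the planned results. Calculations were tested on simulated data. Software was R 4.3.3 and Python 3.11.15 with matplotlib 3.10.9, pandas 2.3.3, scipy 1.17.1 and numpy 2.4.6.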

Additional observations from a re-analysis of the deposited data

How the results depend on the processing

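The log2 folds of the 10 genes kept their sign under each of 7 alternatives (pseudocounts of 0.1 and 5 CPM, no pseudocount, own totals, TMM, median centring and the larger of shared entries). A pseudocount cannot change a sign and the larger of shared entries left every value as it was, so these settings do not check it. All 70 values stayed within a limit set by the width of their own counting interval, which is loose for scarce genes. Without a pseudocount H2-T23 went from 0.26 to 2.165, Tap1 from 0.857 to 1.509 and Nlrc5 from 0.565 to 1.487. The deposited scaling and TMM differed by -9.58e-07 on the log2 scale, so TMM is not a separate check here. Own totals moved folds by 0.02. The count of genes at least 2-fold higher was 1 in place of 0 with a threshold of 1.5-fold, with a pseudocount of 0.1 CPM and with no pseudocount, each time Tap1, whose low reads the pseudocount of 1 damps. The count with an interval above 1, which was 5 of all 10 genes with Nlrc5, was 2 with an exact 99% interval and 2 under an exact binomial test of the reads with Benjamini-Hochberg adjustment, namely H2-D1 and Tap1. That test, of libraries rather than treatments, called 1472 of the 12243 genes higher and 1717 lower. Tap1 entered it through its LY500307 value alone, and without Tap1 only H2-D1 of the set was called. H2-Q4 and Erap1 lost the call in both, and Nlrc5 lost it with the 99% interval and was under the minimum for the binomial test, which took in 7 of the 10 genes. The 36 list medians under alternatives moved by less than the members' typical interval. No gene changed its place in the order of levels per kilobase with the summed length of all exons. No paired analysis was possible because each group was 1 library, and no library could be left out.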
